A study of Mus musculus with 6 samples.

Results

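Wnt antagonists and feedback genes are described here as 10 genes, given by name: Sfrp1, Sfrp2, Sfrp5, Frzb, Dkk3, Wif1, Kremen1, Apcdd1, Axin2 and Nkd1. Every probe set annotated to exactly 1 of these symbols was taken, which gave 28 probe sets of 45037 that were not controls, for 10 of 18193 named genes. Transcript levels were measured on 6 Affymetrix arrays, 1 for each of 6 mouse neural stem cell lines that the labels call independent. By the labels, 3 of the lines are FoxO-null and the other 3 wild-type. They do not give the FoxO alleles, the strain, the age of the animals, the driver of any deletion or the culture conditions, so nothing can be said of what both groups share. FoxO proteins are forkhead transcription factors that are kept out of the nucleus when insulin or growth factors activate Akt, and the study's title concerns the pathways they regulate in neural stem cells.

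Wnt proteins bind Frizzled receptors and the co-receptors Lrp5 and Lrp6, which halts the destruction of beta-catenin and lets it switch on genes with TCF and LEF factors. Secreted antagonists catch the ligand or occupy the receptor outside the cell, and feedback inhibitors, many of them target genes themselves, dampen the signal at the membrane or inside it. In the nervous system the pathway is known for the growth of progenitors and for setting regional identity along the neural tube.

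Signals of the targeted family mostly went against the labels. Of 9 probe sets for Foxo1, Foxo3 and Foxo4, 8 had a positive log2 difference, and in 5 all 3 lines labelled FoxO-null were above all 3 labelled wild-type. Over all probe sets these shares were 53.5% and 6.95%. The negative one was a Foxo4 probe set at -0.31. Of the 9, 0 had an adjusted limma p under 0.05 (lowest 0.0882). Where these probe sets lie relative to any deleted exon is not known here, and one outside the deleted part checks nothing. Each group is therefore named by its label, and all directions follow the labels. Neural stem cell markers were present: all 13 measured, Sox2, Nes, Fabp7 and Vim among them, lay above background on all 6 arrays. So did 9 of 9 astrocyte and 7 of 8 oligodendrocyte lineage markers, so presence alone does not set stem cells apart. Background is an array's highest signal among its 27 spike-in controls from Bacillus subtilis, between 14.4 and 27.6. It was higher on the lines labelled FoxO-null (19.2, 27.6 and 26.9) than on wild-type 1 (14.4), 2 (15.8) and 3 (19.1). The 18S rRNA 5' control stood apart on wild-type 1, at 211 against 23.5 to 38.9 elsewhere.

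No promoter sequence of the members held a match to the forkhead or TCF/LEF letters searched, each on both strands. The forkhead core was searched as TGTTTAC. The longer form was TTGTTTAC, every match of which also contains the core. The first TCF/LEF form was CTTTGAA. The other form was CTTTGAT. RefSeq promoter windows (build GRCm38.p6, 250 bases before to 50 after a start) were matched for 6 members: Axin2, Frzb, Nkd1, Sfrp2, Sfrp5 and Wif1. The windows of Sfrp2, Axin2 and Nkd1 lie inside the annotated genes, which begin at 83765750, 108917828 and 88521342. Sequence before those positions was not searched. None of the 6 windows held any of the 4 motifs. Among all 32851 promoter windows, 3.65% held the forkhead core, 1.23% its longer form, 5.14% the first TCF/LEF form and 3.73% the other. The windows of 5 of the 6 held more CpG dinucleotides than the median of 7 over all windows, 15 in Sfrp5, 20 in Frzb, 22 in Sfrp2, 25 in Wif1 and 31 in Axin2, while Nkd1 held 6. The 250 bases before the start of Sfrp2 (chr3:83766071-83766320, plus strand) and Axin2 (chr11:108920099-108920348, plus strand) are shown because Sfrp2 had the smallest p of the members and Axin2 is the standard readout of the pathway. Both are in lower case throughout, since no motif was found to set in capitals.
Sfrp2: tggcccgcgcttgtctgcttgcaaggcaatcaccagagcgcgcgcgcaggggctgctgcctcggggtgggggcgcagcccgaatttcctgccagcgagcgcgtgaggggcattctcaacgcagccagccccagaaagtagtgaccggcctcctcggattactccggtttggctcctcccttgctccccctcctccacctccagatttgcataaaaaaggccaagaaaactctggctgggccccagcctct
Axin2: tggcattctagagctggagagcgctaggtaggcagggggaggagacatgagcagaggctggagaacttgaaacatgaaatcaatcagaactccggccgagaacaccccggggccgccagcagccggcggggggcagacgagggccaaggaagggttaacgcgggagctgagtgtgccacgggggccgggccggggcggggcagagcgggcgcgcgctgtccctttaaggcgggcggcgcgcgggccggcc

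No member passed the test between the groups. In the limma fit of all 45037 probe sets, 0 of the 28 had a Benjamini-Hochberg adjusted p under 0.05, against 1 probe set in all (0.00222%), that of the Notch effector gene Hes5. By the unadjusted limma p, 2 of 28 were under 0.05, 1 of Sfrp2 and 1 of Apcdd1, both with FoxO-null above wild-type by label. The share over all probe sets was 7.24% in either direction and 3.9% on the higher side. The groups did not overlap in 2 of 28, 1 of Sfrp2 and 1 of Sfrp1, both higher, where 12.6% of all probe sets did not overlap, 6.95% higher and 5.67% lower. Both counts are near those shares. Signs were split, with 13 differences above 0 and 15 below, and the median log2 difference was -0.08, beside 0.03 over all probe sets. Only 11 of the 28, for 7 genes, lay above background on all 6 arrays (43.1% of all probe sets did); in Sfrp5, Frzb and Wif1 no probe set did. With 3 lines a group the smallest two-sided p of an exact permutation test is 0.1, so limma's p-values are given. Since cells of the lines were measured in bulk, fewer cells of a type and less RNA per cell cannot be told apart.

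**Figure D1:**
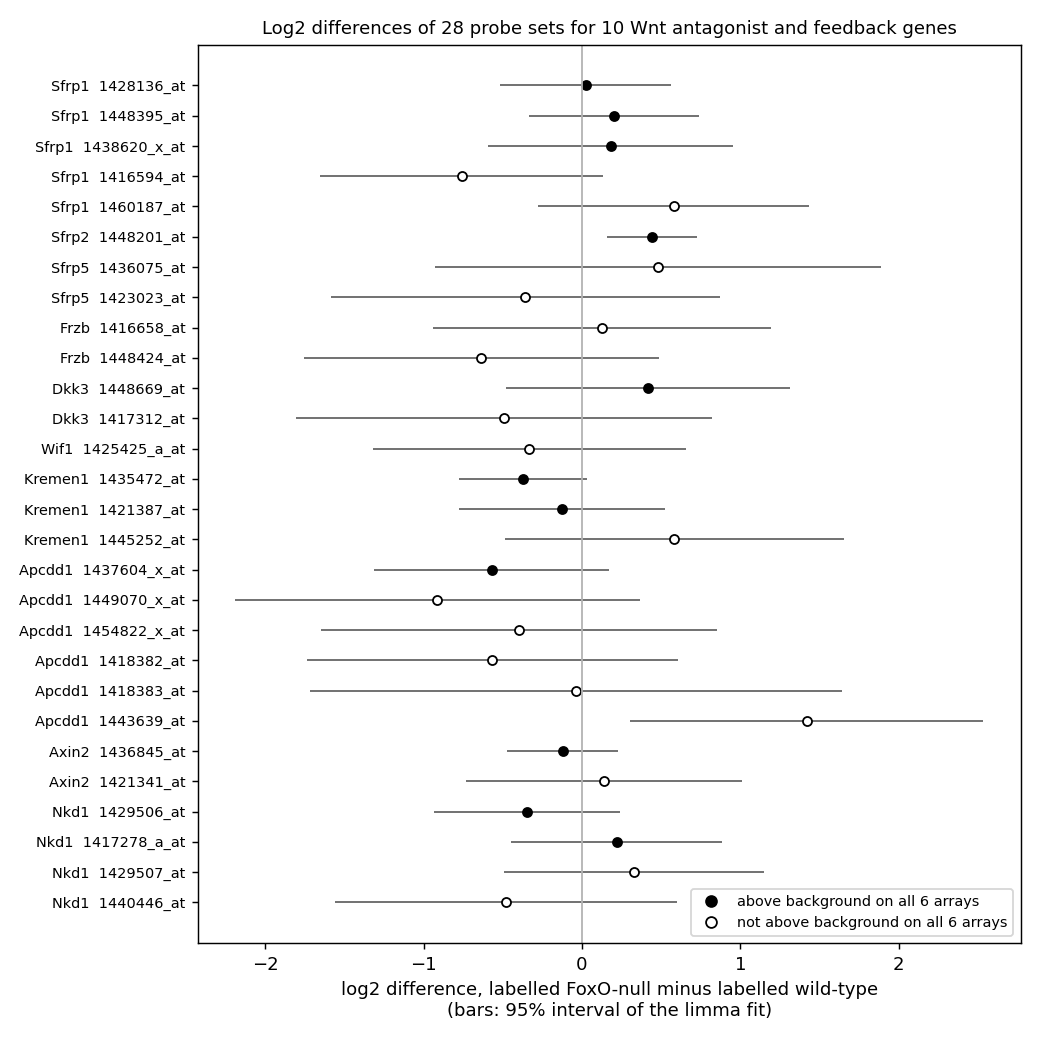
Log2 difference (labelled FoxO-null minus labelled wild-type, horizontal axis) of each of 28 probe sets with the 95% interval of the limma fit; filled points lay above background on all 6 arrays, open points did not. Most intervals span 0, the exceptions being Sfrp2 and the Apcdd1 probe set 1443639_at, and probe sets of 1 gene fall on both sides of 0 for every gene with more than 1.

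The secreted Frizzled-related proteins carry a Frizzled-like ligand-binding domain without the membrane part of the receptor, and so can take up Wnt outside the cell. Their 10 probe sets had a median log2 difference of 0.15, with 7 above 0, 3 below and 0 past the adjusted threshold.

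Sfrp2 had the smallest p of the 28 probe sets. Its only probe set read 254, 223 and 257 on FoxO-null 1 to 3 and 171, 183 and 180.0 on wild-type 1 to 3, so every line labelled FoxO-null was above every line labelled wild-type, and the 3 wild-type lines lay close together. The means were 244 ± 19.1 and 178 ± 6.54 (SD, n = 3 lines each). The log2 difference was 0.44 ± 0.13 (SE) with a 95% interval of 0.16 to 0.73, an unadjusted limma p of 0.00516 and an adjusted limma p of 0.434. Over the 15 other settings tried the limma difference stayed between 0.37 and 0.51. The adjusted limma p was 0.0602 when signals were raised to their array's background, where the unadjusted limma p was 0.00929. In the other settings the adjusted limma p lay between 0.283 and 0.896. Summed signals of glial markers also did not overlap between the labels: that of 9 astrocyte markers was 7189.6 to 8420.1 in the lines labelled FoxO-null and 4848 to 6271 in the lines labelled wild-type, and that of 8 oligodendrocyte lineage markers 9061 to 9414 against 5215 to 6437. Such sums are weighted to bright genes. By the limma fit 0 markers of either list passed the adjusted threshold (lowest adjusted p 0.0882). At an unadjusted limma p under 0.05, 5 of 9 and 5 of 8 were higher. Among all 18193 genes, each read from its probe set of highest mean log2 value, 859 were. Of the 13 stem cell markers, 5 were higher at that level, Hes5 included, and 1 was lower. All 9 astrocyte markers were above background on all arrays, and of the oligodendrocyte markers Mog was at or under it on all 6. Their part in the Sfrp2 signal was not tested.

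Sfrp1 had 5 probe sets, 4 with differences above 0 and 1 below. The brightest, 1428136_at, read 60.3, 67.9 and 76.7 in the lines labelled FoxO-null and 77.3, 47.3 and 80.9 in those labelled wild-type. The groups overlapped fully and the log2 difference was 0.02 ± 0.25 (95% interval -0.52 to 0.56, adjusted limma p 0.994). The next, 1448395_at, read 58.6, 61.0 and 63.6 against 53.4, 41.8 and 63.5 (0.20 ± 0.25). On both of these wild-type 2 was the lowest line. The third, 1438620_x_at, read 60.2, 30.1 and 30.8 against 37.8, 26.4 and 36.4 (0.18 ± 0.36), with FoxO-null 1 alone high. The dimmer 1460187_at read 26.5, 33.8 and 25.7 against 19.7, 13.3 and 18.9, with no overlap but with FoxO-null 3, wild-type 2 and wild-type 3 under their own array's background (0.58 ± 0.39, adjusted limma p 0.808). The probe set 1416594_at leaned the other way, at 40.6, 18.7 and 13.4 against 38.2, 34.4 and 54.7 (-0.76 ± 0.41, adjusted limma p 0.751). Across the 6 arrays the 10 pairs of Sfrp1 probe sets had a median Pearson r of 0.30, from -0.54 to 0.81.

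Sfrp5 and Frzb, 2 further members of the class, were mostly near background. Of the Sfrp5 probe sets, 1436075_at read 7.82, 75.2 and 26.8 against 32.1, 5.49 and 25.1, and 1423023_at read 15.9, 3.72 and 39.6 against 14.8, 20.6 and 30.7. The log2 differences were 0.48 ± 0.65 and -0.36 ± 0.56. FoxO-null 2 was the highest line on the first and the lowest on the second, and the r between them was -0.46. Frzb, first known as a cartilage and head organiser protein, read 16.9, 29.4 and 37.5 against 9.73, 27.0 and 46.1 on its brighter probe set (0.13 ± 0.49). Its dimmer probe set read 11.4, 15.7 and 5.11 against 7.40, 29.8 and 26.7 (-0.64 ± 0.52), where no line labelled FoxO-null was above background and wild-type 2 and 3 were. Wild-type 3, however, read under the higher backgrounds of FoxO-null 2 and 3 (27.6 and 26.9), so no fold between the groups is bounded. On both Frzb probe sets, wild-type 1 was among the lowest lines.

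**Figure D2:**
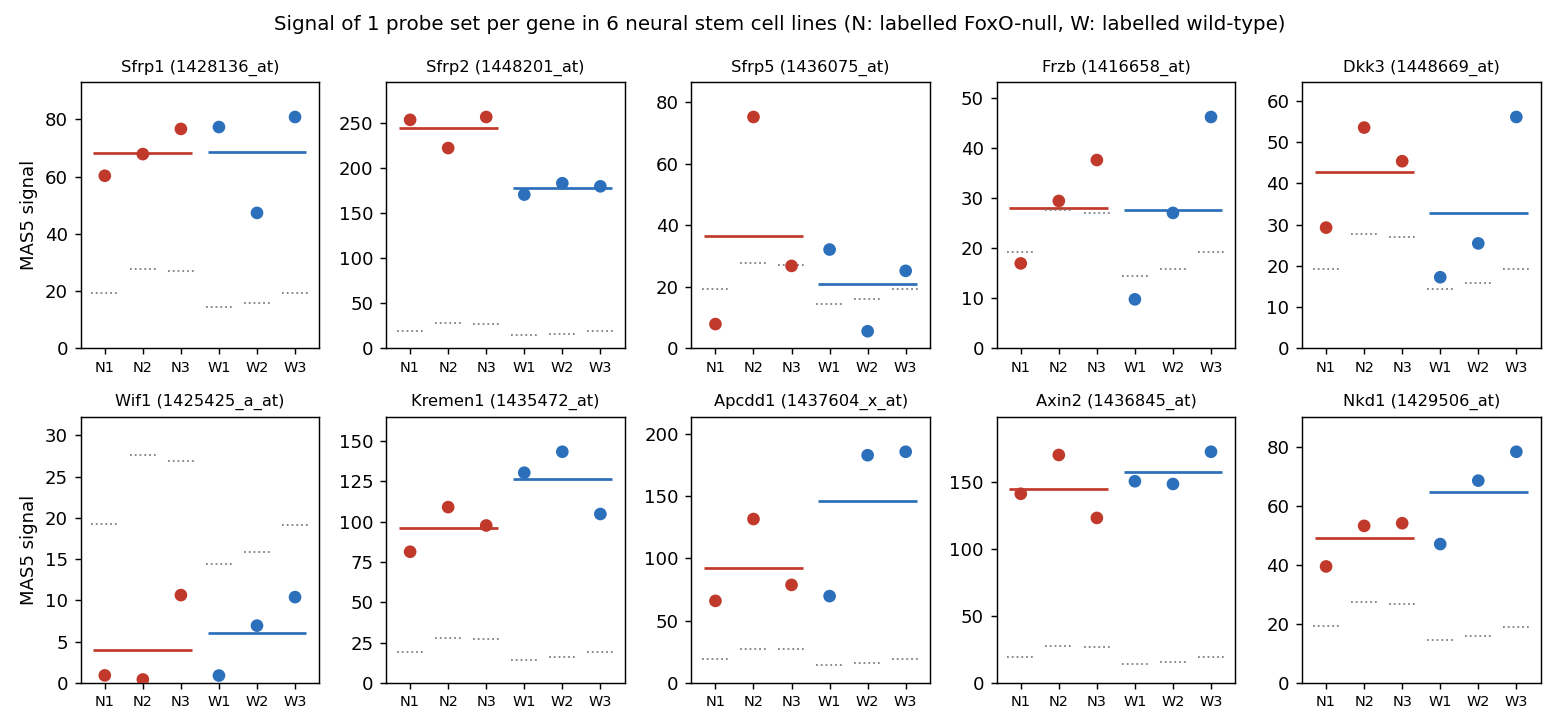
MAS5 signal (vertical axis, linear, own scale in each panel) of the probe set of highest mean log2 value for each of 10 genes in the 6 lines; N1 to N3 are labelled FoxO-null, W1 to W3 wild-type, solid lines are group means and dotted lines each array's background. Only Sfrp2 shows groups that do not overlap, and Wif1 lies under background on all 6 arrays.

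Of the other secreted antagonists, Wif1 was not above background in any line. Wif1 encodes a protein that binds Wnt ligands directly, and its probe set read 0.905, 0.409 and 10.6 against 0.886, 6.93 and 10.4, so no fold is given and its plotted difference has no measured side. Dkk3 is a divergent member of the Dickkopf family whose effect on Wnt signalling is less settled than that of Dkk1. Its brighter probe set read 29.2, 53.5 and 45.4 against 17.2, 25.4 and 56.1, above background on all arrays. Wild-type 1 was lowest and wild-type 3 highest, so the groups overlapped (0.42 ± 0.41, 95% interval -0.48 to 1.31, adjusted limma p 0.885). The dimmer Dkk3 probe set read 28.1, 29.2 and 1.86 against 13.1, 26.8 and 35.7 (-0.49 ± 0.60), with FoxO-null 3 alone near 0.

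Both membrane proteins had most of their probe sets below 0. Kremen1 is the transmembrane receptor that works with Dickkopf proteins to remove Lrp6 from the cell surface. Its brightest probe set read 81.3, 109 and 97.6 in the lines labelled FoxO-null and 130.3, 143 and 105 in those labelled wild-type. Only FoxO-null 2 and wild-type 3 crossed over, and the log2 difference was -0.37 ± 0.19 (95% interval -0.78 to 0.03, unadjusted p 0.0696, adjusted limma p 0.730). The second Kremen1 probe set, 1421387_at, read 51.9, 32.2 and 68.3 against 48.3, 63.1 and 50.7 (-0.12 ± 0.30). The third, 1445252_at, read 46.7, 33.9 and 11.8 against 14.6, 24.6 and 11.7 (0.58 ± 0.49), and was above background in 2 lines of each group.

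Of the 7 genes above background on all arrays, Apcdd1 varied most between lines, and the lines that were high or low did not follow the labels. Apcdd1 is a membrane glycoprotein that binds Wnt and Lrp5 and holds the signal back, and it is also a target of the pathway. Its brightest probe set, 1437604_x_at, read 65.9, 132 and 78.7 in the lines labelled FoxO-null and 69.7, 183 and 186 in those labelled wild-type. FoxO-null 2, wild-type 2 and wild-type 3 were thus high, and FoxO-null 1, FoxO-null 3 and wild-type 1 low. The SD of its log2 values over the 6 lines was higher than that of 99.2% of the 19423 probe sets above background on all arrays; on the same measure the brightest probe set of Dkk3 was at 98.1, Nkd1 at 75.4, Kremen1 at 63.5, Sfrp1 at 60.4, Sfrp2 at 56.5 and Axin2 at 27.2. The log2 difference between the groups was -0.57 ± 0.34 (95% interval -1.31 to 0.17, adjusted limma p 0.778).

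The same high lines were seen on 4 further Apcdd1 probe sets. The one with the next highest mean, 1449070_x_at, read 26.7, 85.7 and 25.1 against 22.4, 140.1 and 143. On 1454822_x_at the signals were 23.9, 51.9 and 21.8 against 10.8, 58.4 and 95.4. On 1418382_at they were 32.7, 57.6 and 8.73 against 20.4, 62.1 and 59.2. On 1418383_at they were 12.2, 37.3 and 33.4 against 0.849, 65.0 and 63.4. The log2 differences were -0.91 ± 0.59, -0.40 ± 0.57, -0.56 ± 0.54 and -0.04 ± 0.77 in that order. In each of these FoxO-null 2, wild-type 2 and wild-type 3 were the 3 highest lines and wild-type 1 was among the lowest 2. Probe sets ending in x_at can share probes with other transcripts, but 1418382_at and 1418383_at do not carry that ending. The sixth, 1443639_at, ran the opposite way, at 32.0, 12.6 and 39.8 against 3.14, 13.1 and 3.76 (1.42 ± 0.51, unadjusted p 0.0167, adjusted limma p 0.570). All 3 wild-type signals and that of FoxO-null 2 lay under background, so 2 of the 3 lines labelled FoxO-null were above it. The geometric mean of the signals labelled FoxO-null, FoxO-null 2 included, was 1.54 times that of the wild-type arrays' backgrounds. This is not a lower bound, since FoxO-null 2 lay under its own background and read lower than wild-type 2. Background was also higher on the arrays labelled FoxO-null (19.2, 27.6 and 26.9) than on those labelled wild-type (14.4, 15.8 and 19.1). Over all 15 pairs of Apcdd1 probe sets the median r across the 6 arrays was 0.79, from -0.45 to 0.99.

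When wild-type 1, whose 18S rRNA control was high, was left out, the Apcdd1 difference on 1437604_x_at was -1.01 and that on 1449070_x_at was -1.71, with unadjusted limma p-values of 0.00204 and 0.00155 and adjusted limma p-values of 0.376 and 0.333. Over the other 5 fits that left out 1 line, the first was between -0.84 and -0.34. The median over all 28 member probe sets was -0.27 without that array and 0.15 without wild-type 3, against -0.08 with all 6.

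Among 12015 genes the 2 whose log2 signals were most like those of 1437604_x_at over the 6 arrays were Irx5 (r = 0.993) and En2 (r = 0.992), and 75 genes had an r over 0.9; with 6 points that share arrays and scaling, this is a description. En2, a homeobox gene of the midbrain and hindbrain, read 7.76, 52.8 and 15.2 in the lines labelled FoxO-null and 10.2, 97.3 and 154 in those labelled wild-type, under background in FoxO-null 1, FoxO-null 3 and wild-type 1. Irx5, an Iroquois homeobox gene, read 19.3, 37.7 and 23.6 against 19.9, 64.4 and 67.0, under background in FoxO-null 3. En2 belongs to the posterior neural list of 14 genes, where its log2 difference of -1.32 was the lowest, 9 of 14 differences were above 0 and the median was 0.12. As a deviation from the 6-line mean, that list stood at -0.05, 0.03 and 0.03 (mean log2) in the lines labelled FoxO-null and at -0.31, 0.09 and 0.20 in those labelled wild-type. These means include En2, which was named for its likeness to Apcdd1, and were not taken without it. Means of this list rest mostly on dim genes. Only 1 of its 14 genes was above background on all 6 arrays, and 6 were at or under background on all of them. The 6 dorsal telencephalic genes stood at 0.24, 0.03 and -0.12 and at 0.44, -0.41 and -0.19, so wild-type 1 was highest for the dorsal and lowest for the posterior list. The part of regional identity in the Apcdd1 signals was not tested.

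**Figure D3:**
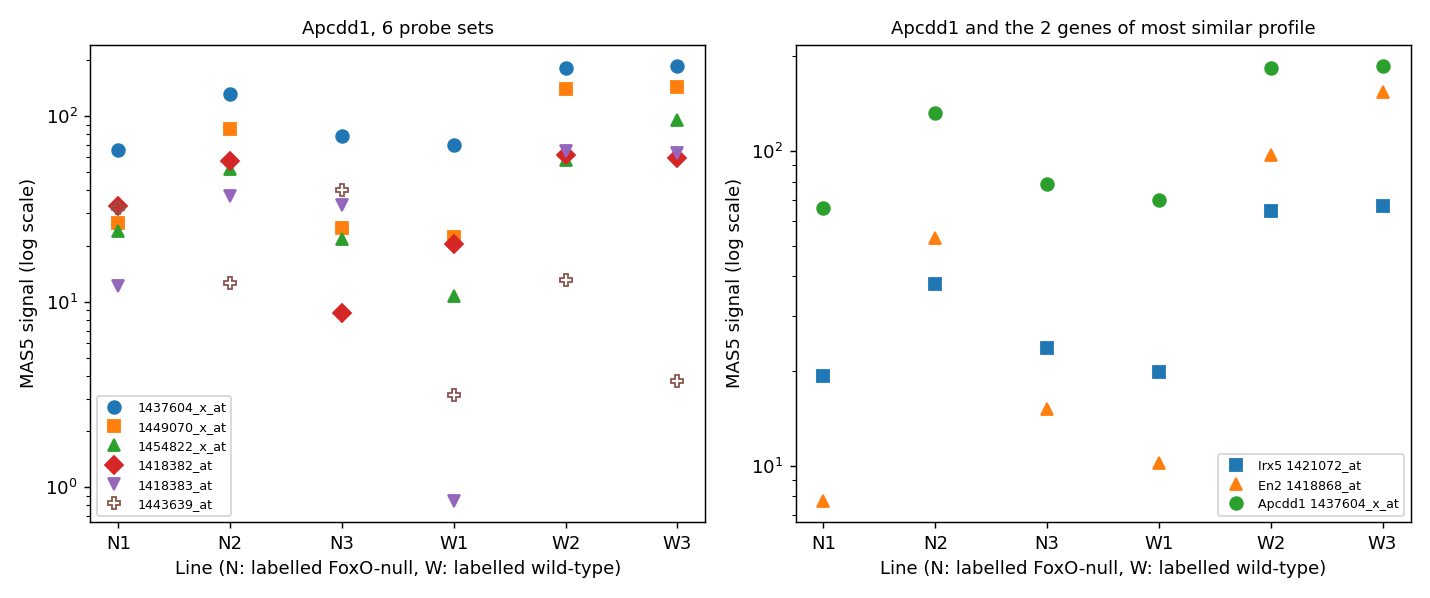
MAS5 signal (vertical axes, log scale) in the 6 lines, N1 to N3 labelled FoxO-null and W1 to W3 labelled wild-type: left, the 6 probe sets of Apcdd1, with 1443639_at as open crosses; right, the brightest Apcdd1 probe set with Irx5 and En2. N2, W2 and W3 are the 3 highest lines on 5 of the 6 Apcdd1 probe sets and on both other genes.

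Markers of meningeal, choroid plexus, endothelial and microglial cells, which could carry Wnt antagonists into such cultures, were mostly near background. Of 9 meningeal and fibroblast markers 1 lay above background on all 6 arrays, the collagen gene Col1a2, and the summed signal of the list was 125 to 197 in the lines labelled FoxO-null and 94.2 to 231 in those labelled wild-type. Of 6 choroid plexus markers 1 did, Otx2, which is also a forebrain and midbrain gene and read 177, 193 and 180.5 against 59.1, 274 and 279.6, while Ttr and Kcne2 were at or under background on all arrays. None of 6 endothelial and 1 of 9 microglial markers, Csf1r, were above it on all 6. Of 10 neuronal markers, by contrast, 7 were. The part of such cells in the members' signals was not tested.

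Neither intracellular feedback gene passed the threshold, with 3 of their 6 differences above 0 and 3 below. Axin2 is a scaffold of the beta-catenin destruction complex and a direct target of the pathway, so its level is widely read as a measure of Wnt activity. Its bright probe set read 141, 169.9 and 123 in the lines labelled FoxO-null and 150.3, 148 and 172 in those labelled wild-type. Both groups lay in the same range, with means of 145 ± 23.7 and 157 ± 13.3 (SD, n = 3 lines each). The log2 difference was -0.12 ± 0.16 and its 95% interval ran from -0.47 to 0.23 (adjusted limma p 0.916). The dim Axin2 probe set read 25.5, 17.1 and 30.1 against 23.8, 18.1 and 21.3 (0.14 ± 0.40), and its r with the bright one was -0.79.

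Nkd1 binds Dishevelled and dampens the signal below the receptor. Its probe set of highest mean, 1429506_at, read 39.6, 53.4 and 54.3 against 47.2, 68.7 and 78.5. Wild-type 2 and 3 were the highest lines and the groups overlapped at wild-type 1 (-0.35 ± 0.27, 95% interval -0.93 to 0.24, adjusted limma p 0.836). On 1417278_a_at the signals were 46.6, 50.4 and 52.2 against 27.1, 53.7 and 49.5 (0.22 ± 0.31), so that only wild-type 1 stood apart. On 1429507_at they were 37.6, 23.3 and 63.5 against 30.0, 27.4 and 31.4 (0.33 ± 0.38), and on 1440446_at 21.3, 12.4 and 8.33 against 19.1, 11.1 and 39.2 (-0.48 ± 0.50). The last of these was above background in 3 of 6 lines. The standing probe sets of Nkd1 and Apcdd1 had an r of 0.91 over the 6 arrays, the highest of any 2 members. That value rests on 1 of 4 Nkd1 probe sets. The 6 pairs of Nkd1 probe sets had a median r of -0.01, from -0.29 to 0.42.

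Profiles most like those of the other members, taken by the same measure, had the following leaders. For Sfrp2 they were the heat shock factor binding protein gene Hsbp1 (r = 0.996) and the tubulin glycylase gene Ttll3 (0.992), and for Sfrp1 they were Rrad (0.994) and Tsn (0.984). Dkk3 was most like the neurotensin receptor gene Ntsr2 (0.993) and the histone gene H2az2 (0.992), and Kremen1 most like the chaperonin gene Cct7 (0.984) and Cachd1 (0.983). Axin2 was most like Zfp101 (0.974) and Dhx29 (0.973), and Nkd1 most like Icos (0.987) and Mrfap1 (0.985). Between 67 and 185 genes had an r over 0.9 with each of these members, so a close match over 6 arrays was common. The leaders did not have to be above background. Rrad was above it on 0 arrays labelled FoxO-null and 2 labelled wild-type, Icos on 1 and 3, and Ttll3 on 2 and 2. The other leaders named in this paragraph were above it on all 6.

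No gene in the other parts of the pathway passed the adjusted threshold either, each gene being read from its probe set of highest mean signal. Read that way, 859 of all 18193 genes were higher and 729 lower at an unadjusted limma p under 0.05. Of 25 genes for ligands and their secretion, 17 differences were above 0 and 8 below, and 0 rose and 1 fell at an unadjusted limma p under 0.05 (3.33% of all probe sets fell so). That 1 was Wls, which carries Wnt proteins to the cell surface, at 102, 151 and 94.4 against 133, 209.5 and 224 (-0.67 ± 0.22, adjusted limma p 0.527). The ligand gene Wnt3 had the next smallest p, with all signals under background. Of 18 receptor genes 1 was higher and 3 lower at that level. Fzd1, a Frizzled receptor gene, read 173, 242 and 181 against 239, 327 and 325 (-0.57 ± 0.17, adjusted limma p 0.439), and Lgr5, an R-spondin receptor and Wnt target gene, read 55.6, 63.9 and 52.0 against 57.4, 136 and 115 (-0.71 ± 0.29, adjusted limma p 0.631). The other receptor genes at that level, named after their values were seen, were Ryk, which was lower (-0.33 ± 0.13, adjusted limma p 0.633), and Fzd2, which was higher (0.41 ± 0.18, adjusted limma p 0.657).

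Of 16 other antagonist genes, 0 were higher and 1 lower at the unadjusted level, and 8 were at or under background on all arrays, the antagonist genes Dkk1, Dkk2, Dkk4 and Sost among them. The lower one was Igfbp4, an IGF-binding protein that can also bind Frizzled and Lrp6, at 1306, 1940.0 and 1439 against 2797, 2537 and 2793 (-0.81 ± 0.15, adjusted limma p 0.177). The summed signal of the 16, of which Igfbp4 was the largest share, was 1967 to 2704 against 3226 to 3446. The median log2 difference of the 16 was 0.06, with 9 above 0 and 7 below. Draxin, a guidance protein that acts on Lrp6, read 213, 279 and 228 against 36.7, 233 and 193 (0.95 ± 0.48), so wild-type 1 alone stood low.

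Of 30 signal transduction genes 2 were higher and 1 lower at the unadjusted level, and 27 were above background on all arrays. The smallest p-values were those of Tcf7l1, a mostly repressive TCF factor, at 134, 143 and 133 against 80.1, 101 and 90.3 (0.57 ± 0.17, adjusted limma p 0.431), and of Btrc, which marks beta-catenin for destruction, at 225, 211 and 277 against 177, 175 and 152 (0.48 ± 0.15, adjusted limma p 0.485). In both, every line labelled FoxO-null was above every line labelled wild-type. The beta-catenin gene Ctnnb1, chosen here after its values were seen, had means of 3911 ± 328 and 3995 ± 379.

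No target gene other than the members passed the adjusted threshold. Of 24 measured, 11 differences were above 0 and 13 below, with 1 higher and 3 lower at an unadjusted p under 0.05 and a median of -0.02. This list shares genes with the lists above. Among the lower genes is Lgr5, which was also counted among the receptor genes. Id2, an inhibitor of differentiation that BMP signals also induce, read 630.2, 631 and 692 against 381, 482 and 389 (0.64 ± 0.12, adjusted limma p 0.204). Myc, a growth regulator with many inputs, read 231, 185 and 156 against 325, 259.6 and 319 (-0.65 ± 0.16, adjusted limma p 0.330). The groups did not overlap in either gene. The summed signal of the 24 did not overlap either, at 4769 to 5906 against 6353 to 7104. That sum is weighted to its brightest gene, the cyclin gene Ccnd1, and does not show a shift across the list. Ccnd1, named after its values were seen, read 2863, 3487 and 2347 against 4277, 4870.1 and 4181 (-0.63 ± 0.16, adjusted limma p 0.341).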

How the data were processed

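RNA of 6 mouse neural stem cell lines was measured on 1 Affymetrix array each. The deposited intensity signals were made by the authors with MAS5, per the submitters' processing notes; further steps are not given in the sources used here. The mean after trimming 2% at each end was 100 on every array, and medians differed by 1.29 times at most, so the scaling was kept. All columns were used and 0 left out. Of 45101 probe sets 64 were controls. Among the rest, 34945 had 1 gene in the platform annotation, 932 had several and 9160 had none; 34741 of the first kind matched RefSeq by gene number.

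Analysis used log2(signal + 5.94), where 5.94 is the 20th percentile of the table, an offset that understates differences of dim probe sets. All 45037 probe sets entered a limma fit (version 3.58.1, lmFit and eBayes with trend, R 4.3.3) with no filter or covariate, so that every member had a value. Tests were two-sided with Benjamini-Hochberg adjustment over all probe sets at 0.05. The procedure was tested on simulated data. Values are mean ± SD of 3 lines and log2 differences ± SE. Array number limits the precision. A gene named once is read from its probe set of highest mean log2 value; likeness used genes over the 40th percentile. From each pathway list the 2 genes of smallest p are named, where none passed. The members, lists and tests were chosen with earlier results of these data known. A protein comparison was not analysed here.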

Additional observations from a re-analysis of the deposited data

How the results depend on the processing

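No member probe set passed the adjusted limma threshold under any of the 15 alternatives, where 1 to 7 of them had an unadjusted p under 0.05, and the median member difference, -0.08, stayed between -0.27 and 0.15. The count over all probe sets, 1, was 0 with an offset of 16, with median centring, without the intensity trend and with the replicate number as a block (replicate block), 5 with 1 probe set per gene after the filter, and 363 when signals were raised to their array's background, which was higher in the lines labelled FoxO-null; it was 0 to 1 in fits that left out 1 line. Same-numbered lines had deviations that correlated at 0.01, 0.06 and 0.10, and differently numbered lines at -0.14 to 0.09. With so few pairs these values cannot settle whether the numbers pair the lines. As a block, the replicate number gave 4 member probe sets an unadjusted limma p under 0.05, against 2 without it. Of 398 single values 24 changed sign, all uncalled. Median centring put Sfrp1 1428136_at at -0.045, and an offset of 1 put Apcdd1 1418383_at at 0.38. The background floor put Sfrp5 1423023_at at 0.31, Frzb 1448424_at at 0.073, Dkk3 1417312_at at 0.17, Wif1 at 0.44 and Nkd1 1440446_at at 0.10; for Wif1, under background on all 6 arrays, that value is only the difference between the arrays' backgrounds. Fits that left out 1 line turned the sign of 12 probe sets, whose differences then ranged as follows: Sfrp1 1428136_at -0.20 to 0.15, Sfrp1 1438620_x_at -0.11 to 0.33, Sfrp5 1436075_at -0.17 to 1.11, Sfrp5 1423023_at -0.91 to 0.21, Frzb 1416658_at -0.34 to 0.53, Dkk3 1417312_at -0.86 to 0.22, Kremen1 1421387_at -0.34 to 0.14, Apcdd1 1454822_x_at -1.15 to 0.15, Apcdd1 1418382_at -1.04 to 0.021, Apcdd1 1418383_at -1.16 to 0.53, Axin2 1421341_at -0.0015 to 0.32 and Nkd1 1417278_a_at -0.047 to 0.38. Signal over background limits Sfrp5, Frzb and Wif1 most.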
